A study of Mus musculus with 4 samples.

Results

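The genes described here encode the TGF-beta ligands (Tgfb1, Tgfb2 and Tgfb3), the latent TGF-beta binding proteins (Ltbp1, Ltbp2, Ltbp3 and Ltbp4), the coreceptor endoglin (Eng), the activator thrombospondin-1 (Thbs1) and the matrix protein Tgfbi. They were chosen by symbol, with earlier results of these data known, and all 10 were found once each among the 54838 genes listed in every library. RNA was sequenced from Hepa1-6, a mouse hepatocellular carcinoma cell line, in a group that is wild type for Acvr2a (NC, 2 libraries) and a group labelled as knockout of Acvr2a, the gene of an activin type II receptor (KO, 2 libraries). The knockout cells are called subclones, but whether KO 1 and KO 2 are separate subclones or cultures of 1, and how the NC cells were handled, is not given in the sources used here. The p-values therefore rest only on the spread between these libraries, pooled in part across genes, which may be technical. No treatment is named for either group. The comparison of both groups asks which genes differ in level between these NC and KO cells. Since the handling of the NC cells is not given, effects of the Acvr2a genotype and of subcloning cannot be told apart.

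TGF-beta is made as a precursor whose N-terminal part, the latency-associated peptide, stays wrapped around the mature ligand and keeps it from its receptors. The latent TGF-beta binding proteins attach this complex to the extracellular matrix, where integrins, proteases and thrombospondin-1 can release the ligand. Endoglin is a coreceptor best known from endothelial cells, where it binds BMP9, BMP10 and TGF-beta together with other receptors. In liver, TGF-beta restrains hepatocyte growth and drives matrix production by stellate cells.

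Library totals were between 11597923 and 13910582 counts. Replicates correlated at 0.989 in both groups (log2 of CPM, the counts scaled to equal library size, across the 12510 tested genes), and pairs across groups at 0.963 to 0.972. Acvr2a itself was at 7.12 and 7.80 CPM in the NC libraries and at 5.69 and 7.18 in the KO libraries, so the groups overlapped and the RNA level did not tell them apart (log2 fold change -0.21, SE 0.20, adjusted p = 0.433). The group names follow the labels. The hepatoma markers Alb (473 to 713 TPM, a level scaled by transcript length) and Afp (72.9 to 167 TPM) were present in every library, whereas Ttr, Serpina1a and Ahsg, which mature hepatocytes make in quantity, had 5 counts or fewer in each.

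In KO libraries Ltbp4 was 3.01-fold and Eng 2.49-fold as high as in NC, and Thbs1 was lower at 0.845 of its NC level. Tgfb1 and Ltbp3, the ligand and the binding protein with the highest levels, differed by less than the spread between libraries, as did Tgfbi. Tgfb2, Tgfb3, Ltbp1 and Ltbp2 had 0 to 10 counts per library and fell under the filter on low counts. Of the 10 genes, 6 were tested, 2 were higher in KO, 1 was lower and 3 did not pass (edgeR quasi-likelihood fit, adjusted p threshold 0.05). Among all 12510 genes tested, 37.9% passed, 19.7% higher in KO and 18.2% lower. Of the calls, 51.9% were higher, against 68.0% in the fits on filtered TPM. A count of 3 of 6 is to be read against that share. The libraries of both groups did not overlap in CPM for 3 of the 6 genes, against 69.4% of all genes tested. The median log2 fold change of the 6 was 0.047, against -0.0037 over all genes tested. Rises past the threshold of more than 2-fold, as seen for Ltbp4 and Eng, were made by 5.72% of the tested genes.

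**Figure D1:**
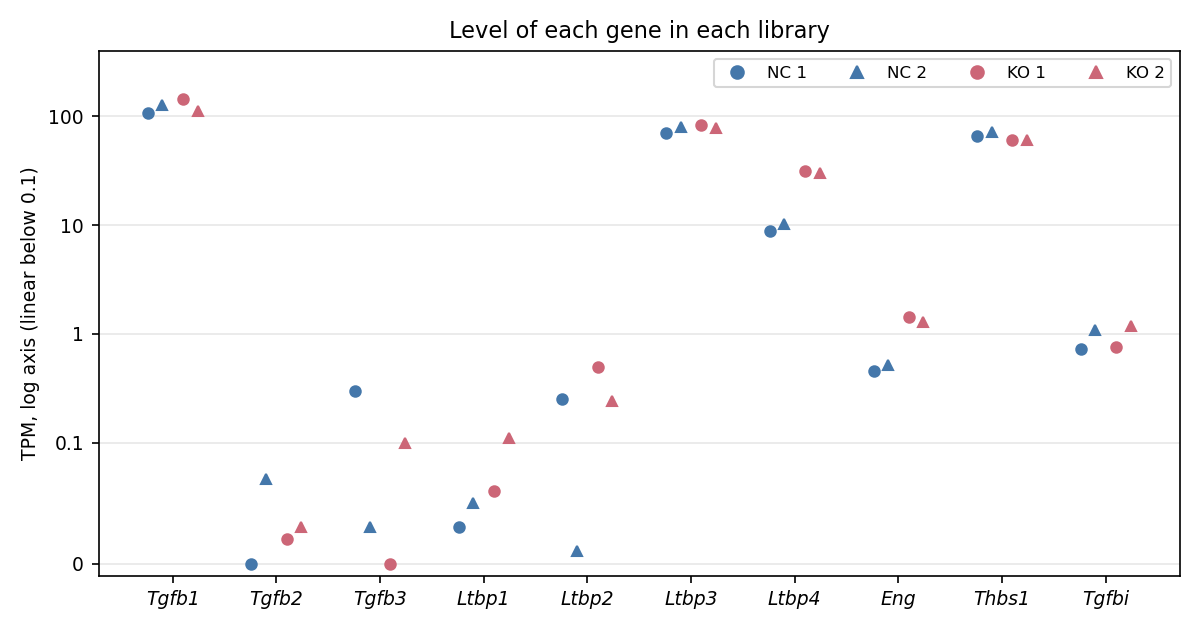
TPM (log axis, linear below 0.1) of each of the 10 genes in each library, with NC in blue, KO in red, circles for libraries 1 and triangles for libraries 2. Ltbp4 and Eng sit higher in both KO libraries than in both NC libraries, Tgfb1 and Ltbp3 overlap between groups, and Tgfb2, Tgfb3, Ltbp1 and Ltbp2 lie at or below 0.5 TPM throughout.

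Ltbp4 and Eng rose, so the DNA upstream of their listed start sites is shown. The counts are per gene, so from which start the RNA that rose was made was not tested. RefSeq's promoter table (GRCm38.p6) held entries for 8 of the 10 genes, and for Ltbp4 it held starts at 27337612 and 27333648, some distance apart on chromosome 7. The sequences below are the bases before those starts and before the Eng start that lie outside every annotated exon of the gene, read on the gene's strand. They are chr7:27337693-27337862 (minus strand, 170 bases), chr7:27333664-27333898 (minus strand, 235 bases) and chr2:32646345-32646594 (plus strand, 250 bases). Capitals mark matches on either strand to any of 5 motifs: CAGAC (a SMAD box), GGCGCC (a GC-rich element bound by SMADs), TGANTCA (AP-1), GGGCGG (GC box) and ACGTG (core of the hypoxia response element); matches may overlap.
Ltbp4, outer start: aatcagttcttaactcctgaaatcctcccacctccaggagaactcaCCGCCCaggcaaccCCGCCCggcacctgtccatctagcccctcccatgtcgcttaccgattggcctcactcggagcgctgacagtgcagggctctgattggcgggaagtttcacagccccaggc
Ltbp4, inner start: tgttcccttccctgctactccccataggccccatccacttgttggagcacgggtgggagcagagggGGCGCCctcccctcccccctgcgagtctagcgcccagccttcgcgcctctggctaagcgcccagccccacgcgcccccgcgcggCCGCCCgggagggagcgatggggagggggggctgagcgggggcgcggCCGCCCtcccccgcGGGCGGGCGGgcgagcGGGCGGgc
Eng: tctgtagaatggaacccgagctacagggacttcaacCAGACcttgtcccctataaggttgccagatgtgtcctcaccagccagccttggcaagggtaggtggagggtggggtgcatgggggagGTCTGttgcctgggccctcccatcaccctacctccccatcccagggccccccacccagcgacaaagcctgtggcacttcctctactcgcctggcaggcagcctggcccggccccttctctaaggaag

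The Ltbp4 and Eng windows had no motif in common. GC boxes were found 2 times upstream of the outer Ltbp4 start and 5 times upstream of the inner one, where 19.5% and 30.6% of all 32851 promoter windows of the same lengths hold at least 1. The inner Ltbp4 window also held 1 GGCGCC, present in 8.86% of windows. The Eng window held 2 CAGAC matches and no GC box. At least 1 CAGAC match is held by 42.2% of windows of that length. The AP-1 and hypoxia element letters were found in none of the windows. A match is a description of the letters, not of binding.

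Among the ligands, nearly all RNA came from Tgfb1, which accounted for 99.7% to 100% of the summed TPM of Tgfb1, Tgfb2 and Tgfb3 in each library. Tgfb1 (ENSMUSG00000002603.15, GRCm38 chromosome 7, 25687002 to 25705077, plus strand) stood at 142.71 TPM in KO 1 and 111.56 in KO 2, against 106.89 in NC 1 and 128.11 in NC 2. KO 1 was the highest library and KO 2 fell between both NC libraries, so the groups overlapped. On the count scale KO stood at 216 ± 30.4 CPM against 208 ± 19.6 for NC (SD, n = 2), a ratio of 1.04 with a 95% interval of 0.90 to 1.2 (adjusted p = 0.710). The log2 fold change was 0.054 (SE 0.10), and it was -0.095 without KO 1 and -0.038 without NC 1. Tgfb1 had the highest TPM of the 10 genes in all 4 libraries.

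Tgfb2 and Tgfb3, which encode the other ligand isoforms, were at the edge of detection. Tgfb2 (chromosome 1, 186622792 to 186705989) was counted 0, 4, 1 and 2 times in NC 1, NC 2, KO 1 and KO 2. Tgfb3 (chromosome 12, 86056745 to 86079041) was counted 10 times in NC 1, 1 time in NC 2, 0 times in KO 1 and 4 times in KO 2. A count of 0 allows up to 0.259 CPM in NC 1 and 0.232 CPM in KO 1. The 10 counts of Tgfb3 in NC 1 made up most of its NC sum of 11 (exact Poisson 95% interval 5.49 to 19.7), against 4 in KO (1.09 to 10.2), so a difference was not detectable at this depth. These intervals cover counting error only.

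Within the Ltbp family, Ltbp3 had the highest TPM in every library, and of the 2 members tested Ltbp4 passed. Ltbp3 (ENSMUSG00000024940.10, chromosome 19, 5740904 to 5758532, plus strand), which carries latent TGF-beta and is best known for its role in bone, stood at 83.63 TPM in KO 1 and 77.45 in KO 2, against 70.68 in NC 1 and 80.11 in NC 2. The groups overlapped, with KO 2 below NC 2. The ratio of KO to NC on the count scale was 1.03 (95% interval 0.903 to 1.17, adjusted p = 0.773), from 342 ± 18.4 to 351 ± 8.48 CPM (SD, n = 2), and the log2 fold change of 0.039 became -0.015 without NC 1.

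Ltbp4 (ENSMUSG00000040488.17, chromosome 7, 27305136 to 27337692, minus strand) encodes a binding protein that carries latent TGF-beta1 and also takes part in elastic fibre assembly. It had 555 counts in KO 1 and 637 in KO 2, against 157 in NC 1 and 218 in NC 2. Both KO libraries were above both NC libraries by a wide margin. The level rose from 14.8 ± 1.37 to 44.6 ± 3.56 CPM (SD, n = 2), a 3.01-fold difference (95% interval 2.52 to 3.60) or 1.59 on the log2 scale (SE 0.13, adjusted p = 1.33e-10). Only 2.61% of the genes tested had a larger log2 fold change. The log2 fold change stayed between 1.5 and 1.7 in the 13 alternative fits, and the call was lost in 1 of them, limma on TPM without a filter on low values (adjusted p = 0.0754), which called 0 genes in all.

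By deposited TPM, Ltbp4 went from 8.91 and 10.16 in NC 1 and NC 2 to 31.26 and 30.22 in KO 1 and KO 2. Its share of the summed Ltbp1 to Ltbp4 TPM was 11.2% in both NC libraries, 27.1% in KO 1 and 28.0% in KO 2. The summed TPM of the family was 79.9 and 90.3 in NC against 115 and 108 in KO, while Ltbp3 alone overlapped between groups. These shares depend on the transcript length that enters TPM. The deposited mean length of Ltbp4 was 1887 and 1973 bases in NC and 1804 and 1973 in KO, similar in both groups, whereas its longest protein-coding transcripts in GENCODE M21 are 5386 and 5377 bases and 4 of its 10 annotated transcripts are only 518 to 867 bases long. With CPM per kilobase of the longest coding transcript, an alternative chosen after seeing the data, the share of Ltbp4 was 3.98% ± 0.144 in NC and 10.9% ± 1.02 in KO (SD, n = 2). The levels per kilobase were then 2.74 ± 0.249 in NC and 8.29 ± 0.67 in KO for Ltbp4, against 65.9 ± 3.54 and 67.6 ± 1.63 for Ltbp3.

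**Figure D2:**
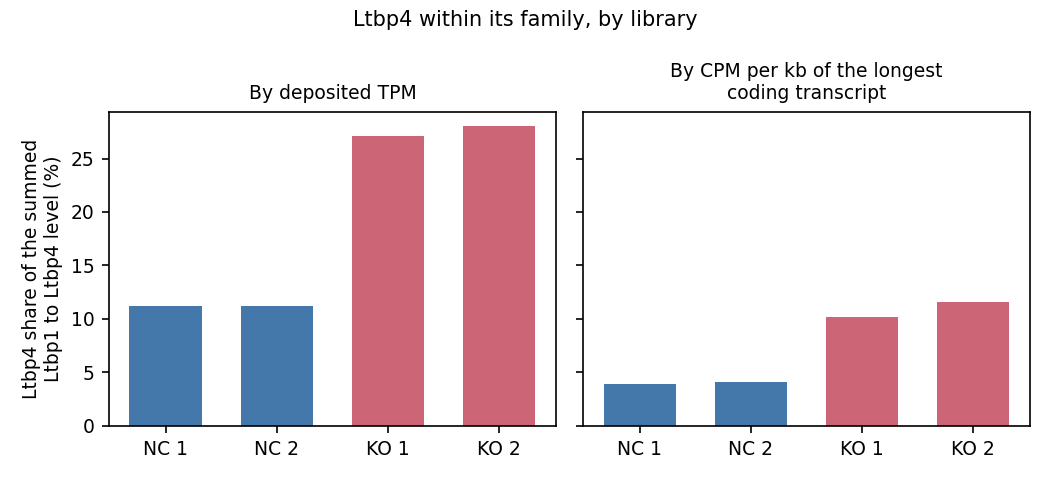
Share of Ltbp4 in the summed level of Ltbp1 to Ltbp4 (percent, bars from 0) in each library, by deposited TPM on the left and by CPM per kilobase of the longest coding transcript on the right; NC in blue, KO in red. Both KO bars exceed both NC bars on either scale, with 27.1% and 28.0% against 11.2% on the left and 10.2% and 11.6% against 3.88% and 4.09% on the right.

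Ltbp1 and Ltbp2 were near the limit of detection. Ltbp1 (chromosome 17, 75005568 to 75392512), the member first found bound to latent TGF-beta, was counted 1, 2, 2 and 4 times in NC 1, NC 2, KO 1 and KO 2. Ltbp2 (chromosome 12, 84783212 to 84876532), a microfibril protein that does not bind latent TGF-beta, was counted 3, 1, 9 and 8 times. In counts, both KO libraries were above both NC libraries for Ltbp2. The summed counts were 17 in KO against 4 in NC, a ratio per read of 4.10 (95% counting interval 1.34 to 16.8). In TPM the groups overlapped for Ltbp2, with 0.25 in NC 1 and 0.24 in KO 2. The fit without a filter on low counts gave Ltbp2 a log2 fold change of 1.92 with an adjusted p of 0.128, so Ltbp2 did not pass. The Ltbp2 exons share 764 bases, 9.34% of their total, with D030025P21Rik on the other strand.

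Eng (ENSMUSG00000026814.16, chromosome 2, 32646595 to 32682669, plus strand) was expressed at a low level and rose in KO. Both KO libraries had 45 counts, while NC 1 had 15 and NC 2 had 19, which the authors' files give as 1.44 and 1.28 TPM in KO and 0.46 and 0.52 TPM in NC. The KO libraries were alike and above both NC libraries. The level went from 1.35 ± 0.0372 to 3.37 ± 0.0595 CPM (SD, n = 2), a 2.49-fold difference with a wide 95% interval of 1.51 to 4.12 (log2 fold change 1.32, SE 0.35, adjusted p = 0.00352). Of the genes tested, 3.83% had a larger log2 fold change. The call was lost only with limma on unfiltered log2(TPM + 1) (log2 fold change 0.66, adjusted p = 0.104). The filtered fit on that scale gave the same 0.66 and kept the call (adjusted p = 0.0230). The Eng exons share 61 bases, 1.51% of the total, with Fpgs on the other strand, which was counted 493 and 503 times in NC and 519 and 408 in KO and overlapped between groups (log2 fold change -0.19, adjusted p = 0.226).

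Because Eng marks endothelial cells, 12 other endothelial markers were read beside it. Of these, 5 (Cdh5, Tek, Emcn, Cldn5 and Erg) had 0 counts in every library, and Kdr, Tie1 and Stab2 had at most 1. Pecam1 and Vwf had 4 to 13 counts per library and overlapped between groups, while Egfl7 (log2 fold change 1.26, adjusted p = 6.40e-05) and Plvap (1.93, adjusted p = 0.00674) were higher in KO. The summed TPM of the list was 7.03 and 6.58 in NC against 18.1 and 16.5 in KO, most of it Egfl7 at 5.83 to 16.87 TPM. The part of these markers in the Eng result was not tested. In bulk RNA a change in the number of cells of a type and a change in RNA per cell cannot be told apart.

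Markers of other cells were read in the same way. Of 10 macrophage and leukocyte markers, C1qa, C1qb and Tyrobp were at 0 and Cd68 alone passed, being higher in KO (log2 fold change 1.2). The summed TPM was 24.8 and 29.0 in NC against 57.5 and 68.9 in KO, almost all of it Cd68 (24.04 to 67.62 TPM). Of 10 fibroblast and stellate markers, Lum, Col3a1, Reln, Thy1 and Postn were at 0, and Pdgfra, Col1a1 and Des were higher in KO. The summed TPM was 1040 and 1100 in NC and 1240 in each KO library. Almost all of it was Dcn, which did not pass (log2 fold change 0.16, adjusted p = 0.193). Of 5 platelet markers, Pf4 was at 0, Itga2b was higher and Ppbp lower in KO. In TPM the groups overlapped for Itga2b, with 5.24 and 2.79 in NC and 2.67 and 9.21 in KO. The summed TPM of the 5 platelet markers was 75.1 and 85.8 in NC and 39.4 and 48.2 in KO, most of it Ppbp (36.36 to 82.9 TPM). Of 10 hepatocyte and hepatoma markers, Alb and Trf were higher and Afp, Hnf4a and Fgb lower in KO, and the summed TPM was 1150 and 1090 in NC and 1360 and 1390 in KO. Their part in the changes of Ltbp4, Eng and Thbs1 was not tested.

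Thbs1 (ENSMUSG00000040152.8, chromosome 2, 118111876 to 118127133, plus strand) encodes thrombospondin-1, a matrix protein that can activate latent TGF-beta and is itself induced by TGF-beta. It was at 289 CPM in KO 1 and 302 in KO 2, against 336 in NC 1 and 363 in NC 2. In TPM the KO libraries had 59.90 and 60.61 and the NC libraries 65.28 and 72.36. Both KO libraries were below both NC libraries. The level fell from 350 ± 19.4 to 295 ± 9.73 CPM (SD, n = 2), a ratio of 0.845 (95% interval 0.742 to 0.962) or -0.24 on the log2 scale (SE 0.091, adjusted p = 0.0366). This call was lost without NC 2 (log2 fold change -0.18, adjusted p = 0.271), without KO 1 (-0.21, adjusted p = 0.12) and in the 3 fits on TPM (-0.19, adjusted p from 0.262 to 0.291), and it kept its sign in every alternative. In TPM, Thbs1 was below Ltbp3 within each of the 4 libraries.

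Tgfbi (ENSMUSG00000035493.10, chromosome 13, 56609523 to 56639562, plus strand) encodes a matrix protein first isolated as a TGF-beta-induced gene. It had 19 and 33 counts in the NC libraries and 21 and 23 in the KO libraries, and 1.67 and 2.38 CPM in NC against 1.59 and 1.70 in KO, so the groups overlapped. The log2 fold change was -0.31 (SE 0.38, 95% interval -1.09 to 0.47, adjusted p = 0.547), and the interval spans both directions. On the TPM scale its direction turned, with 0.72 and 1.08 TPM in NC, 0.75 and 1.17 in KO and a log2 fold change of 0.043 after adding 1. The deposited mean length was 2714 bases in 3 libraries and 1858 in KO 2.

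**Figure D3:**
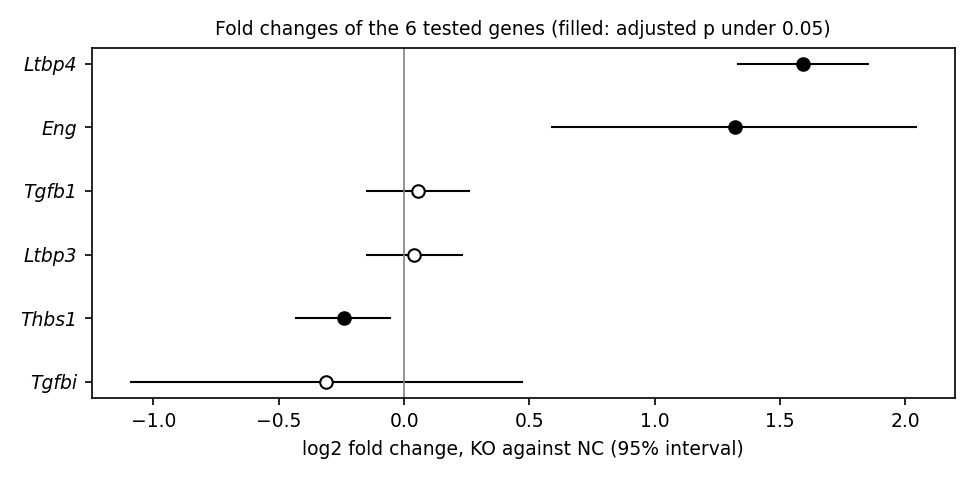
log2 fold change of KO against NC with its 95% interval for the 6 tested genes, from edgeR's quasi-likelihood fit; filled points passed an adjusted p of 0.05. Ltbp4 at 1.59 and Eng at 1.32 lie to the right of 0, Thbs1 at -0.24 to the left, and the intervals of Tgfb1, Ltbp3 and Tgfbi include 0.

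Tgfbr1, Tgfbr2 and Tgfbr3, the receptors and the coreceptor that bind TGF-beta at the cell surface, did not pass the test. Tgfbr2, the type II receptor, was at 88.0 and 91.1 CPM in NC and 87.5 and 96.9 in KO, overlapping between groups (log2 fold change 0.043, adjusted p = 0.758, and -0.033 without KO 2). Tgfbr1, the type I receptor, was at 57.3 and 57.0 CPM in NC and 46.0 and 53.5 in KO, with a log2 fold change of -0.20 that did not pass (adjusted p = 0.123) except without KO 2 (-0.31, adjusted p = 0.0422). Tgfbr3, the betaglycan coreceptor, had 15 to 33 counts per library (log2 fold change 0.33, adjusted p = 0.563, and -0.32 without KO 2). Acvrl1, the type I partner of endoglin, had 3 counts in each NC library and 9 and 5 in KO and was not tested, and its ligand genes Gdf2 (BMP9) and Bmp10 were at 0 counts.

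Of 10 receptor and coreceptor genes, 7 were tested, 2 were higher, 1 was lower and 4 did not pass. The called share of 42.9% was near the 37.9% of all genes tested, and the median log2 fold change was 0.11, against -0.0037. Cd109, a membrane protein that binds TGF-beta and limits its signalling, rose from 5.60 ± 0.455 to 10.7 ± 1.83 CPM (SD, n = 2; log2 fold change 0.93, SE 0.20). Bambi, a decoy receptor, went from 10 and 7 counts in NC to 23 and 27 in KO (log2 fold change 1.45, SE 0.48, adjusted p = 0.0136). Its call was lost with DESeq2 (adjusted p = 0.116), in the 3 fits on TPM, without NC 2 (adjusted p = 0.120) and without KO 2 (adjusted p = 0.0889). Tgfbrap1, which binds TGF-beta receptors, fell by 0.54 on the log2 scale (SE 0.12). The 2 fits on filtered TPM called none of this list, with Cd109 at adjusted p = 0.0520 and 0.0676.

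Of 29 genes for the storage and release of latent TGF-beta, 19 were tested, 8 were higher, 2 lower and 9 did not pass. The called share was 52.6%, against 37.9% of all genes tested (19.7% higher and 18.2% lower), and the median log2 fold change was 0.33, against -0.0037. The list was chosen with earlier results of these data known, so its share and median are descriptions, not an independent test. Among integrin subunits that bind the latency-associated peptide, Itgav rose from 185 and 217 CPM in NC to 284 and 327 in KO (log2 fold change 0.61, SE 0.098, adjusted p = 2.30e-05). Its possible partners did not pass, with log2 fold changes of -0.019 for Itgb1, 0.10 for Itgb3, 0.054 for Itgb5 and 0.33 for Itgb6; the first 3 changed sign in some of the alternatives. Itgb8 had 0 counts in all libraries.

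Fn1, the fibronectin onto which latent complexes are deposited, was at 3470 and 4180 CPM in NC and at 6780 and 7330 in KO (log2 fold change 0.88, SE 0.10, adjusted p = 2.33e-07). Plat, tissue plasminogen activator, rose from 99.1 and 111 CPM in NC to 223 and 221 in KO (1.08, SE 0.093), while plasminogen itself (Plg) was at 0 counts. Igf2r, which binds latent TGF-beta at the cell surface, rose from 6.62 ± 0.471 to 15.6 ± 0.859 CPM (SD, n = 2; 1.24, SE 0.17). Adamts1, a metalloprotease, rose from 9.43 ± 1.89 to 20.8 ± 1.96 CPM (1.13, SE 0.16), a call that was lost in the fits on TPM (adjusted p from 0.0637 to 0.258). The lower genes, singled out after their values were seen, were Furin, the protease that cleaves the TGF-beta precursor (log2 fold change -0.36, adjusted p = 0.00258), and Mmp14 (-0.24, adjusted p = 0.0484). Mmp14 was near the threshold and overlapped between groups in TPM, with 56.45 and 72.57 in NC and 54.67 and 57.77 in KO.

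Of 25 genes known to respond to TGF-beta, 20 were tested, 12 were higher, 1 lower and 7 did not pass. The called share was 65%, against 37.9% of all genes tested (19.7% higher and 18.2% lower), with a median log2 fold change of 0.45, against -0.0037. This list, too, was chosen with earlier results of these data known, so the excess is not independent of them. Whether TGF-beta signalling differed was not tested. Several genes of the list also respond to other signals. Cyr61, a matricellular protein, was at 90.8 and 95.1 CPM in NC and 235 and 242 in KO (log2 fold change 1.36, SE 0.092, adjusted p = 9.32e-12). Klf10, an early TGF-beta-induced transcription factor, rose from 73.6 ± 4.41 to 155 ± 13.9 CPM (SD, n = 2; 1.08, SE 0.097). Col1a1 rose from 6 and 5 counts in NC to 38 and 41 in KO (2.73, SE 0.51), and the SMAD corepressor Tgif1 fell by 0.67 on the log2 scale (SE 0.091). Of the 10 genes described above, Thbs1 and Tgfbi are also known as TGF-beta-induced. Thbs1 was lower in KO (log2 fold change -0.24), a call that was lost in the fits on TPM. Tgfbi did not pass (-0.31, adjusted p = 0.547), and its direction turned on the TPM scale. The smooth muscle genes Acta2 and Tagln, singled out after their values were seen, had 8 counts or fewer per library and were not tested.

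**Figure D4:**
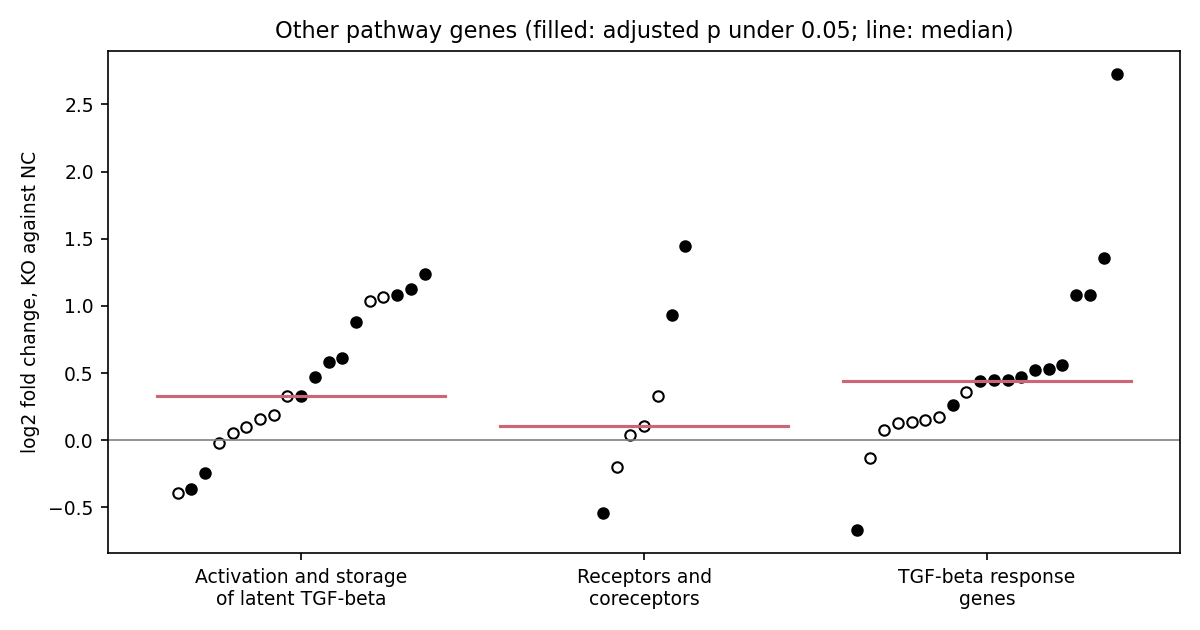
log2 fold change of KO against NC for each tested gene of the 3 pathway lists (points, sorted within each list; filled where the adjusted p was under 0.05), with each list's median as a red line. The medians lie at 0.33, 0.11 and 0.45, with 8 filled points above 0 and 2 below in the first list, 2 and 1 in the second, and 12 and 1 in the third.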

How the data were processed

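RNA-seq libraries of 2 NC and 2 KO samples were compared. Per the submitters' processing notes the tools were FastQC, STAR, RSEM and DESeq2 with builds GRCm38 and mm10; versions, annotation release and strand setting were not given in the sources used here. The deposited expected counts are the authors' estimated counts per gene, not normalised, and the deposited TPM were scaled by the authors for transcript length, as the file headers name them; deposited FPKM values were not used. The deposited mean transcript lengths were read as base pairs.

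Expected counts were rounded. Genes were kept with filterByExpr (12510 of 54838), scaled by TMM and tested with edgeR's quasi-likelihood test (edgeR 4.0.16, R 4.3.3), group only. All 4 libraries shared one spread per gene, which edgeR moderates with the spread of the other genes (prior df 25.8). Benjamini-Hochberg adjustment was over all genes tested, with a threshold of 0.05. An exact permutation of 2 against 2 cannot give a p below 0.333. Alternatives used DESeq2 1.42.0 and limma 3.58.1 on log2(TPM + pseudocount), a scale that understates the fold change of low genes. Positions are GENCODE M21 on GRCm38, matched by gene ID without version.

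The members and lists were chosen with earlier results of these data known. Named genes are the 10 members, Acvr2a, the up to 5 genes per pathway list past 0.05 with the lowest p, and receptor and integrin partners. Cell type markers are named as lists. Of the pathway lists, Furin, Mmp14, Plg, Gdf2, Bmp10, Acta2 and Tagln were named outside these rules, after their values were seen. Some items that these rules name are not reported here.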

Additional observations from a re-analysis of the deposited data

How the results depend on the processing

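The 3 calls among the 10 genes were made in most of 13 alternatives. The number called was within 1.5 times of 3 in 12 of them, and 0 with limma on unfiltered log2(TPM + 1), where 2 members had an unadjusted p under 0.05. That fit called 0 genes of 20640 and 0 in each pathway list, with 4506 genes and 22 pathway genes at an unadjusted p under 0.05. The other fits on TPM, with pseudocounts of 1 and 0.1, called 2158 and 2099 genes against 4741, with 68.0% of the calls higher in KO in both against 51.9%; DESeq2 called 3217. They called 16 and 16 of the pathway genes against 26, of which 6 and 6 against 10 for activation and storage and 0 and 0 against 3 for receptors. The cause was not tested.

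Among the named genes, directions turned only for those that did not pass. Leaving out 1 library moved the log2 fold change of Tgfb1 between -0.095 and 0.19, Ltbp3 between -0.015 and 0.10, Tgfbr2 between -0.033 and 0.12, Tgfbr3 between -0.32 and 0.78, Itgb1 between -0.079 and 0.041, Itgb3 between -0.013 and 0.25 and Itgb5 between -0.013 and 0.13. On TPM, Tgfbi turned to 0.043 (pseudocount 1, filtered or not) and 0.079 (pseudocount 0.1), and Itgb1 to 0.044 in all 3 fits; with at least 10 counts in every library Itgb1 was at 0.00031.

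The deviations of same-numbered libraries did not correlate (-0.0116 across genes), so the numbers are not taken to pair the samples. With the replicate block 5006 genes were called, and 3 members and 26 pathway genes, as without it. The filter on low counts left 4 members out of the main test, and their counts of 0 to 10 per library limit what any fit can show for them.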
